A study of Zea mays with 24 samples.

Results

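The quiescent center of the maize (Zea mays) root tip was set against the stele in 6 of the 24 RNA sequencing libraries of the series, 3 from each tissue, taken by their labelled names. Quiescent center cells were sorted by flow cytometry from protoplasts, cells freed of their walls, of a ZmWOX5::RFP line in a B73/Hi-II background, in which a red fluorescent protein marks the cells. Stele cells came from protoplasts of wild-type B73 that had taken up the dyes syto 40 and syto 81 for 15 min before the sort. Plants of both groups were 7 days after germination, in a chamber at 26 °C with a day of 12 h and a night of 12 h. The other 18 libraries, 3 from each of 6 groups, were endodermis (ZmSCR::RFP, B73/Hi-II), dye-sorted cortex and epidermis, dissected root cap, unsorted protoplasts without cap and intact root tips without cap, the last 5 all wild-type B73. Tissue, genetic background and sorting method cannot be told apart in the comparison of quiescent center and stele, and the labels do not say how many lines or plants stood behind a library.

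The quiescent center is a small group of rarely dividing cells at the tip of the root meristem. The stem cells around it give rise to the cell files of the root, and in Arabidopsis the homeobox gene WOX5 is expressed there and keeps neighbouring stem cells undifferentiated. The stele is the central cylinder above it, which holds the pericycle, the procambium and the forming xylem and phloem. The question was how the stem cell niche differs from the vascular cylinder. The deposited table names genes by identifier only, and 0 of its 39510 identifiers matched the reference table of maize genes, so the identity of both tissues was not checked against marker genes or WOX5, and at most 2 identifiers that rose and 2 that fell are printed. In a bulk library, fewer cells of a type and less RNA per cell cannot be told apart.

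Quiescent center libraries held fewer detected genes than stele libraries and were more often at 0 for single genes. Reads recovered from the table numbered 32501670, 31034558 and 24991925 in the 3 quiescent center libraries, against 36642786, 33251250 and 32224423 in the 3 stele libraries. Genes above 0 numbered 21394 ± 755 in the quiescent center and 27377 ± 277 in the stele (SD, n = 3 each), so the groups did not overlap. Where the other 2 libraries of a group averaged 100 to 300 normalized units, the remaining library was at 0 for 13.7%, 7.73% and 11.2% of genes in the quiescent center, against 0.0224%, 0% and 0.0676% in the stele. Between 300 and 1000 units these shares were 3.36%, 1.74% and 2.81% in the quiescent center and 0% in the stele. Above 1000 units these shares were at most 0.301% in the quiescent center and 0% in the stele. The mean Spearman correlation across genes was 0.815 among quiescent center libraries, 0.962 among stele libraries and 0.715 between the groups, a description in which genes are not independent replicates. The part that these single zeros have in the differences below was not tested, apart from the fits named beside them.

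**Figure D1:**
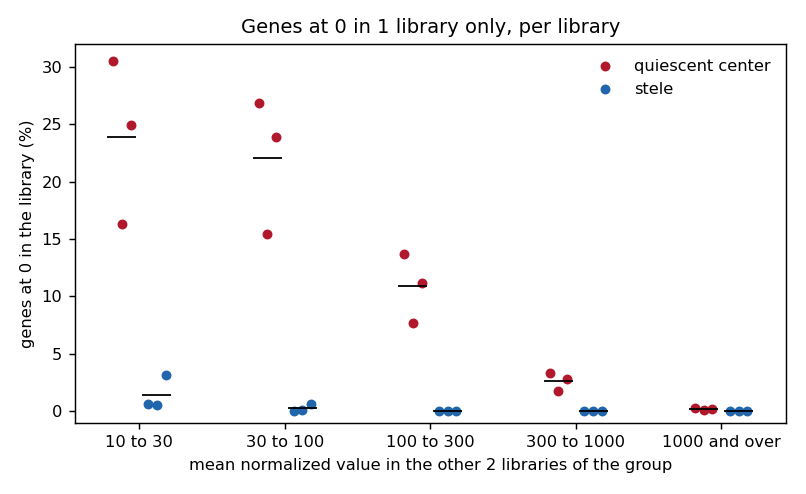
Share of genes at 0 in 1 library (vertical axis, %) against the mean normalized value in the other 2 libraries of the same group (horizontal axis), with 1 point per library and a line at the mean of 3, for the quiescent center (left of each pair) and the stele (right). The quiescent center points lie above the stele points at every level and reach at most 0.301% at 1000 units and over.

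Of 22343 genes tested, 2497 were higher and 3570 were lower in the quiescent center than in the stele. The test was limma on log2(value + 1) over the 6 libraries, and a gene was called at a Benjamini-Hochberg adjusted p below 0.05 and a log2 fold change of at least 1 in size. Called genes were thus 27.2% of those tested, 11.2% higher and 16.0% lower. Every library of one group lay beyond every library of the other for 4514 genes in the higher direction (20.2%) and 6271 in the lower direction (28.1%). In the deposited scaling, genes called lower had larger changes than genes called higher. For this, genes at 0 in all libraries of a group were set to their bound against 3 reads per library. The median size on the log2 scale was then 3.32 for the genes called lower, with quartiles of 2.01 and 5.42, and 224 of them (6.27%) changed by 8 or more. It was 2.47 for the genes called higher, with quartiles of 1.79 and 3.30, and 4 of them (0.160%) changed by 8 or more. The fitted medians, which depend on the pseudocount for such genes, were −3.83 and 2.47. All these sizes also depend on the scaling, and they were not recomputed under another one. The median over all tested genes was −0.50 here and 0.04 after quantile normalization. The bound covers counting error only. Single quiescent center libraries were at 0 for 7.73% to 13.7% of genes at 100 to 300 units. Sizes of change for genes at 0 in the quiescent center are thus uncertain. The same holds for 423 genes called lower at 0 in 2 quiescent center libraries and 183 at 0 in 1, which were not set to a bound. Fewer genes were called when a stele library was left out: without stele replicate 1, 2 or 3 there were 1098, 1117 or 1454 genes higher and 2000, 2046 or 2450 lower. More were called without quiescent center replicate 1, 2 or 3, with 2606, 2718 or 3104 higher and 3773, 4244 or 4655 lower. With weights per group, 1945 were higher and 3585 lower. None of the 20 alternative fits called a gene in the direction opposite to that given here.

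The balance of the directions differed between fits. The median log2 fold change over all tested genes was −0.50. Where the scaling alone was changed, it was −0.55 with TMM factors, with 2382 genes higher and 3673 lower, and 0.04 after quantile normalization, which turned the balance to 3570 higher and 2649 lower. DESeq2 and edgeR on recovered reads, which change the model as well as the scaling, gave medians of −0.15 and −0.04, and edgeR called 2403 genes higher and 2840 lower. With a spread per gene shared by all 8 groups and the same 22343 genes tested, 3094 were higher and 5929 lower.

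**Figure D2:**
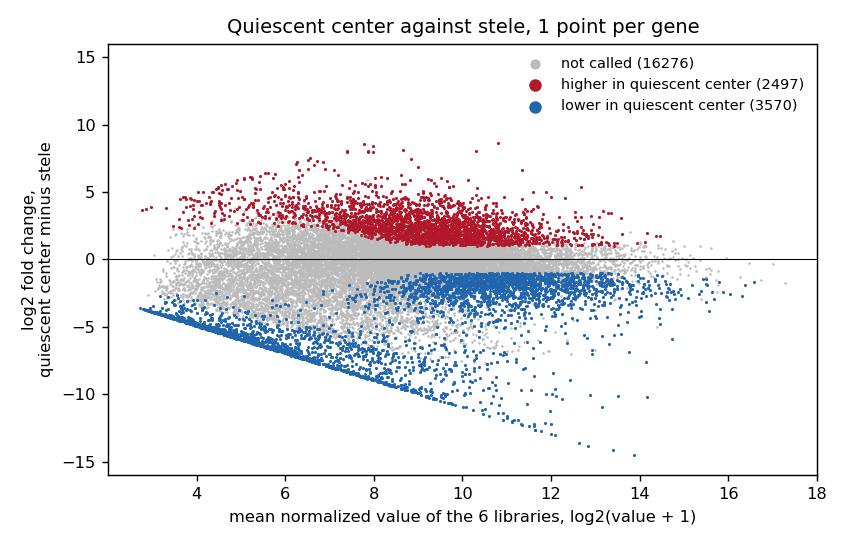
Log2 fold change, quiescent center minus stele (vertical axis), against the log2 of the mean normalized value of the 6 libraries plus 1 (horizontal axis), with 1 point per tested gene. Red marks the 2497 genes called higher in the quiescent center, blue the 3570 called lower and grey the 16276 not called, and the straight lower edge is formed by genes at 0 in all quiescent center libraries.

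Zeros in the quiescent center were common among the genes called lower, and zeros in the stele were rare among those called higher and among all tested genes. Among the 3570 genes called lower, 1056 (29.6%) were at 0 in all 3 quiescent center libraries, 423 in 2 of them, 183 in 1 and 1908 (53.4%) in none. Among the 2497 called higher, 42 (1.68%) were at 0 in all 3 stele libraries and 2388 (95.6%) in none. Over all tested genes, 4.73% were at 0 in all 3 quiescent center libraries and 74.7% in none. In the stele, 0.188% of all tested genes were at 0 in all 3 libraries and 99.2% in none. All 1056 tested genes at 0 in the 3 quiescent center libraries were called lower, and such genes entered the test through the stele alone. Likewise, all 42 tested genes at 0 in the 3 stele libraries were called higher, and they entered through the quiescent center alone. The filter on low values let in 1359 genes that were at 10 or more in every stele library and in no quiescent center library, and 225 with the reverse pattern.

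Genes called higher and genes called lower lay at different levels. With genes placed by their mean over the 6 libraries, 4.64% of genes under 30 units were called higher and 32.6% lower. Of the genes under 30 units, 19.5% were above 0 in all 6 libraries, and 33.2% passed the filter through the stele alone, with 10 or more in every stele library and in no quiescent center library. Between 300 and 1000 units the order was turned, with 16.1% higher and 10.01% lower. At 3000 units and over, 7.74% were called higher and 33.2% lower, and 98.5% of those genes were above 0 in all 6 libraries. Without stele replicate 1, 2 or 3, genes of 3000 units and over were called higher in 4.60%, 4.23% or 5.70% and lower in 16.3%, 18.0% or 23.5%, and genes of 300 to 1000 units were called higher in 7.46%, 7.65% or 9.98% and lower in 3.26%, 3.29% or 4.68%. Without the same libraries, genes under 30 units were called higher in 2.67%, 2.72% or 3.59%. These shares by level were not recomputed under another scaling. The summed normalized signal was 22972060, 21208188 and 24482389 in the quiescent center libraries, against 31113390, 35540181 and 30096606 in the stele libraries. The median SD of log2(value + 1) over 3 libraries was 2.74 in the quiescent center and 0.54 in the stele for genes of 30 to 100 units. For genes of 3000 units and over it was 0.52 in the quiescent center and 0.32 in the stele.

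**Figure D3:**
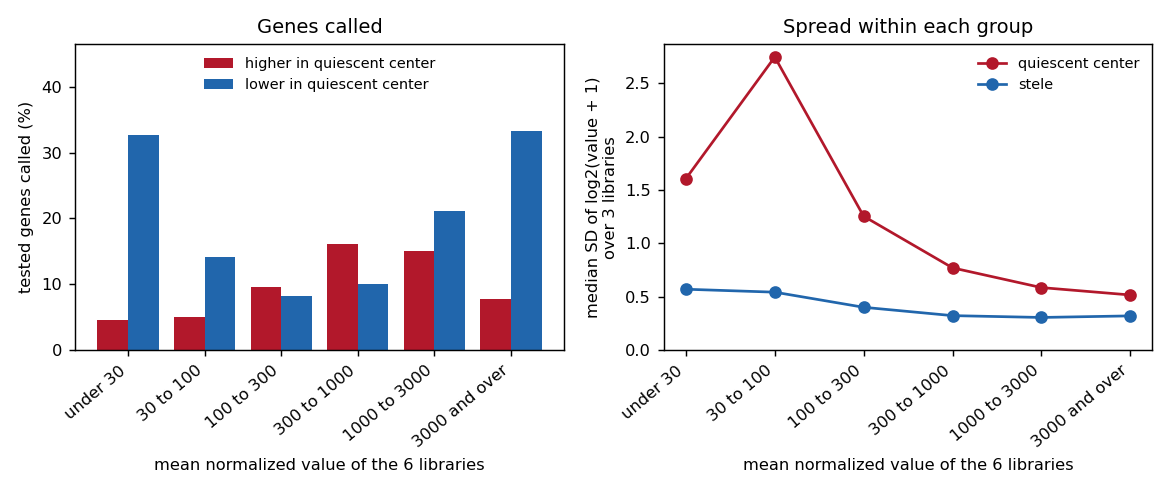
Left, share of tested genes called higher and lower in the quiescent center (vertical axis, %) by the mean normalized value of the 6 libraries (horizontal axis). Right, median over genes of the SD of log2(value + 1) over 3 libraries at the same levels: the quiescent center lies above the stele throughout, at 2.74 and 0.54 for 30 to 100 units and at 0.52 and 0.32 for 3000 units and over.

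The genes called higher took up a larger share of the quiescent center libraries than of the stele libraries. They held 19.6%, 17.5% and 16.9% of all normalized signal in the quiescent center libraries, against 3.44%, 2.54% and 3.40% in the stele libraries. The genes called lower held 11.1%, 11.9% and 12.9% in the quiescent center libraries and 37.6%, 40.4% and 38.0% in the stele libraries. By library, the medians over the higher genes were 2.55, 2.42 and 2.41 log2 units above the stele mean in the quiescent center. Over the lower genes, with zeros set to 3 reads, they were −3.42, −3.24 and −2.97 log2 units relative to the stele mean. These shares and medians follow from how the genes were chosen, in the same libraries, and are a description.

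Few genes could be shown to be alike in both tissues. For 682 of the 22343 tested genes (3.05%), the 95% interval of the log2 fold change lay wholly between −1 and 1. These even genes had a median value of 1421 in the quiescent center and 1409 in the stele, and 465 of them (68.2%) averaged at least 1000 units over the 6 libraries, beside 26.2% of all tested genes. For the other 15594 genes that were not called, the interval reached beyond 1 or −1, so the absence of a change of that size was not shown. The interval is not adjusted for the number of genes, while the call is. For some of these genes, such as Zm00001d002035, the interval lay wholly beyond −1 though the gene was not called.

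Zm00001d028471 had the largest rise among the called genes that averaged 100 or more in the tissue where they were higher and whose groups did not overlap. Its values were 4999, 4417 and 1242 in the 3 quiescent center libraries, against 3.40, 11.8 and 7.47 in the 3 stele libraries. Even the lowest quiescent center library lay far above the highest stele library. The log2 fold change was 8.59 (SE 0.80, limma adjusted p = 0.00089), and it lay between 7.46 and 10.38 over the fits. Outside these tissues it was highest in the endodermis, the other reporter-sorted group, at 32.4 ± 26.0 (SD, n = 3), and averaged between 0.306 and 5.41 in the other groups.

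Zm00001d030310 had the smallest p among the genes that rose. Its values were 14526, 11154 and 12505 in the quiescent center libraries, against 243, 254 and 435 in the stele libraries. The quiescent center libraries were close to each other and did not overlap with the stele. The log2 fold change was 5.40 (SE 0.30, limma adjusted p = 0.000847). Root tips without cap held 1308 ± 262 and the root cap 659 ± 362 (SD, n = 3 each), both above the stele mean, while the endodermis held 96.2 ± 42.9 (SD, n = 3).

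Zm00001d040364 had the largest fall. It had 1 read in quiescent center replicate 1, a value of 0.707, and was at 0 in the other quiescent center libraries, against values of 16653, 31886 and 41478 in the stele libraries. The stele libraries spread widely, and all of them lay far above the quiescent center. The log2 fold change was −14.52 (SE 0.60, limma adjusted p = 0.000847). It rests on that single read and on the pseudocount, and it was −11.42 with a pseudocount of 10 and −16.82 with DESeq2. The ratio of the means, stele over quiescent center, was 127359, with an exact 95% Poisson interval on the single read of 22858 to 5030397, which covers counting error only. The gene was also high in unsorted protoplasts, at 42612 ± 2091, and in root tips without cap, at 34924 ± 13301, and low in the root cap, at 78.9 ± 126 (SD, n = 3 each).

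Zm00001d043523 had the smallest p among the genes that fell. Its values were 39.6, 40.3 and 16.7 in the quiescent center libraries, against 41846, 37595 and 29978 in the stele libraries. It was thus detected in all 3 quiescent center libraries, and the groups were far apart. The log2 fold change was −10.19 (SE 0.40, limma adjusted p = 0.000847), and it lay between −10.40 and −9.49 over the fits. It was also high in the endodermis, at 24206 ± 12013, and it averaged 2.03 ± 3.52 in the root cap (SD, n = 3 each).

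**Figure D4:**
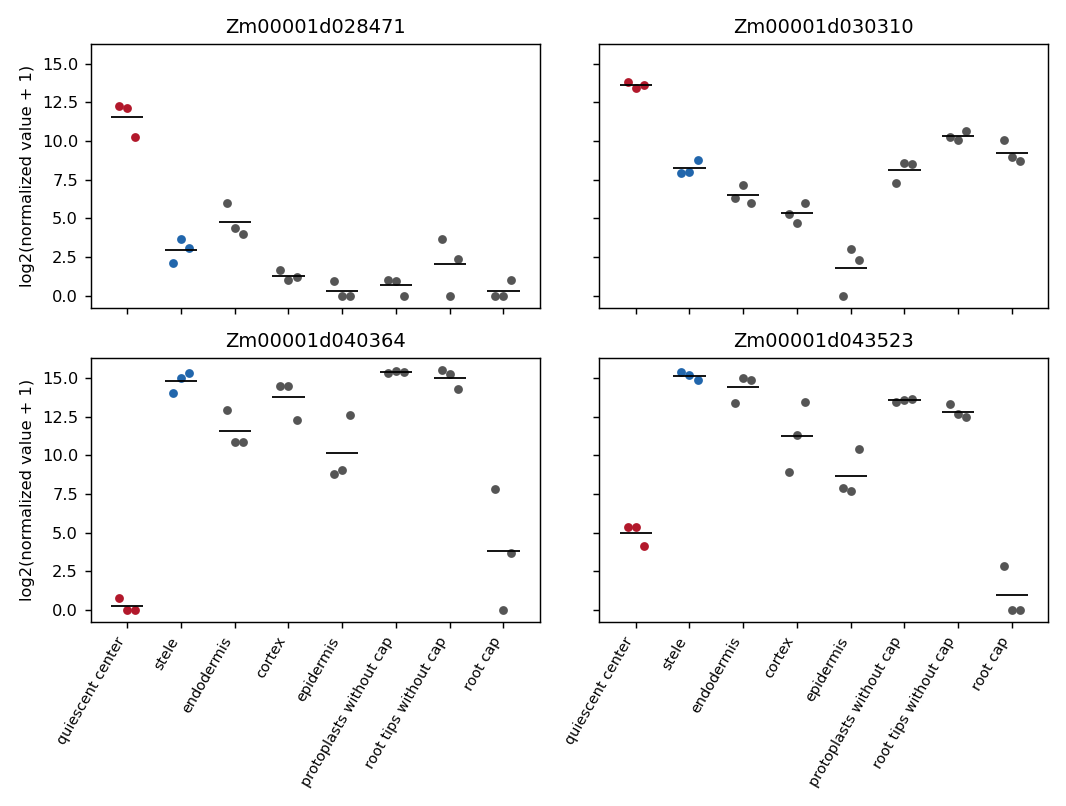
Log2(normalized value + 1) of the 4 printed genes (vertical axis) in the 8 groups (horizontal axis), with 1 point per library and a line at the mean of 3. The upper genes are higher and the lower genes are lower in the quiescent center (red) than in the stele (blue), with no overlap, and the lower genes are also low in the root cap.

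The comparison of quiescent center with endodermis joins the reporter-sorted groups, both in a B73/Hi-II background, and shares the quiescent center libraries with the comparison above. Among 21850 genes tested in the same way, 2574 (11.8%) were higher and 3224 (14.8%) were lower in the quiescent center than in the endodermis, and the total of 5798 was 3805, 3015 or 2882 without endodermis replicate 1, 2 or 3. The genes called higher against the stele had a median log2 fold change of 2.47 against the stele, by which they were chosen, and of 2.45 against the endodermis, where all genes tested in both had a median of −0.38. The genes called lower had medians, with bounds for genes at 0, of −3.32 against the stele and −2.85 against the endodermis, where 3115 of the 3570 were tested. For the 4 printed genes, the log2 fold changes against the endodermis were 6.77 for Zm00001d028471, 7.11 for Zm00001d030310, −11.29 for Zm00001d040364 and −9.45 for Zm00001d043523. The quiescent center libraries that chose all these genes enter both comparisons, so a like direction is built in and the values are a description.

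The endodermis and the cortex were set against the stele in the same way, each pair fitted on its own 6 libraries, with fewer genes called than for the quiescent center. Endodermis against stele gave 1603 of 22510 genes (7.12%), 819 higher (3.64%) and 784 lower (3.48%), and 167, 430 or 611 without stele replicate 1, 2 or 3 and 3772, 379 or 290 without endodermis replicate 1, 2 or 3. Cortex against stele, both dye-sorted from wild type, gave 1955 of 22534 genes (8.68%), 1070 higher (4.75%) and 885 lower (3.93%). Without stele replicate 1, 2 or 3 it gave 252, 245 or 1130, and without cortex replicate 1, 2 or 3 it gave 586, 1469 or 2442. These comparisons share the stele libraries with that of the quiescent center, and the difference between the counts was not tested. Deviations of replicates 1, 2 and 3 from their group correlated at 0.08, −0.62 and −0.21 between same-numbered cortex and stele libraries. Between endodermis and stele these were 0.07, −0.44 and 0.28. Between unlike numbers they ranged from −0.54 to 0.67 for the cortex and from −0.48 to 0.54 for the endodermis. The counts come from fits without pairing, and the part of shared deviations in them was not tested. In endodermis against stele, the genes called higher in the quiescent center had a median log2 fold change of −0.03 and those called lower had one of −0.31, beside −0.10 over all genes tested in both. In cortex against stele, these medians were 0.03 and −0.41, beside −0.09. The stele libraries that chose the genes enter here too. A lean of the lower genes toward negative values is thus built in, and the medians are a description.

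Levels of the called genes in the libraries that the comparison did not use are given as a description. The genes were chosen in part by their stele values. Endodermis and cortex libraries were close to stele libraries, with mean Spearman correlations across genes of 0.913 and 0.883. Levels in the endodermis and the cortex thus lean toward those in the stele by the choice of genes. Genes called higher in the quiescent center lay above the median of all genes in the root cap and in intact tips and below it in the cortex and the endodermis. Their median level per library, as log2(value + 1), was 8.51 to 9.04 in the root cap, 8.34 to 8.52 in root tips without cap and 8.12 to 8.46 in the epidermis. It was lower in unsorted protoplasts, at 7.63 to 7.71, in the cortex, at 7.12 to 7.73, and in the endodermis, at 7.04 to 7.37. Among the 6 groups not used, the root cap was the highest for 41.6% of the higher genes and root tips without cap for 32.2%, against 25.4% and 20.2% of all tested genes. The endodermis was the highest for 7.21% of the higher genes, against 21.3% of all tested genes.

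Genes called lower in the quiescent center were at a high level in the other sorted tissues too. They were chosen by high stele values, so a lean in this direction is built in for tissues close to the stele. Their median level per library was 9.60 to 10.001 in the endodermis, 9.05 to 9.77 in the cortex, 8.58 to 9.08 in the epidermis and 9.34 to 9.36 in unsorted protoplasts. It was 8.12 to 8.68 in root tips without cap and 8.24 to 8.72 in the root cap. The same medians over all tested genes lay between 7.95 and 8.46 in all of these groups. The endodermis was the highest of the 6 groups for 35.3% of the lower genes, against 21.3% of all tested genes.

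**Figure D5:**
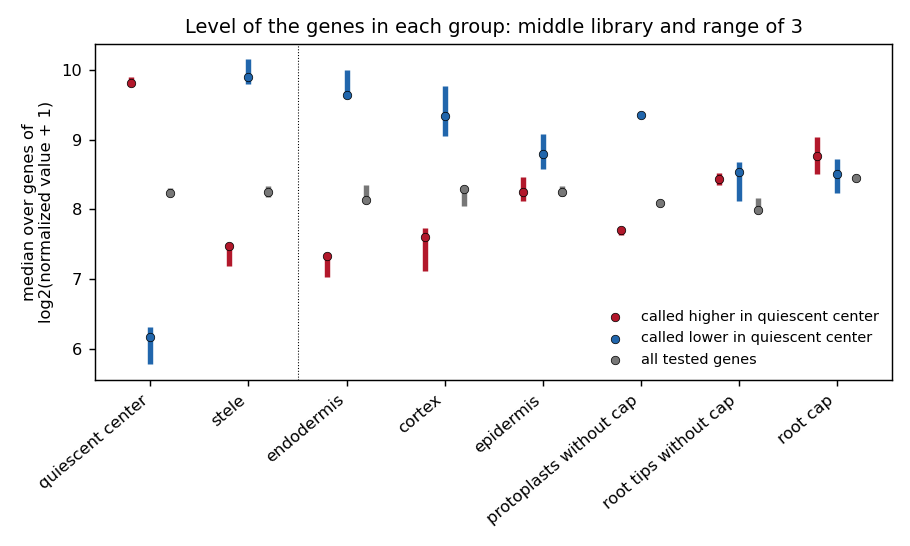
Median over genes of log2(normalized value + 1) (vertical axis) in each of the 8 groups (horizontal axis), for the genes called higher (red) and lower (blue) in the quiescent center and for all tested genes (grey). Dots are the middle and bars the range of 3 libraries, and the groups left of the dotted line chose the genes. The red genes are at 8.51 to 9.04 in the root cap and at 7.04 to 7.37 in the endodermis.

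Unsorted protoplasts and intact tips, both without cap and both outside the comparison, also differed over the called genes. Genes called higher in the quiescent center had a median difference, protoplasts minus intact tips, of −0.88 on the log2 scale, and 16.9% of them were higher in protoplasts. Genes called lower in the quiescent center had a median difference of 0.35, and 62.2% were higher in protoplasts. Over all tested genes the median was −0.13, with 45.0% higher in protoplasts. Per the labels, quiescent center and stele cells were both sorted from protoplasts, and the part of isolation in the called genes was not tested. Between sorted tissues outside the comparison, the median of endodermis minus the mean of epidermis and cortex was −0.36 over the higher genes and 0.34 over the lower genes, beside 0.02 over all tested genes. The endodermis was close to the stele, by which the genes were chosen, so this difference is a description too.

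Genes listed at 0 throughout the quiescent center outnumbered genes listed at 0 throughout the stele. There were 303 genes at 0 in all quiescent center libraries and at 100 or more in every stele library, and 5 genes with the reverse pattern, all of them called. Of the 303 genes, 271 were at 10 or more in every endodermis library, 255 in every unsorted protoplast library, 231 in every library of root tips without cap and 226 in every cortex library. In the root cap, 114 of the 303 were at 10 or more in every library and 73 were at 0 in every library. Since single quiescent center libraries were at 0 for 7.73% to 13.7% of genes at 100 to 300 units, these 303 genes were not shown to be absent from the tissue. Of the 5 genes at 0 throughout the stele, all were at 0 in every unsorted protoplast library and 3 were at 0 in every library of the root cap.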

How the data were processed

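Per the submitters' processing notes, Trimmomatic, kallisto 0.43 and DESeq2 were used. A genome build or annotation is not given in the sources used here. What the authors deposited is a normalized signal, gene counts divided by 1 size factor per library. The 8 columns of group averages were not used. In the 6 libraries compared, 100% of the nonzero values came within 0.01 of whole multiples of 1 read, worth 0.683 to 1.07 units, so reads were recovered. They are estimates, and near-identical gene copies are uncertain. For a gene at 0, counting error allows up to 3 reads, worth 2.05 to 3.21 units.

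Genes with a value of at least 10 in at least 3 of the 6 libraries were fitted as log2(value + 1) with limma 3.58.1 (R 4.3.3, trended prior). The pseudocount of 1 understates the change of low genes. The fit kept to the 2 groups alone, since quiescent center libraries were less alike by Spearman correlation than stele, endodermis or cortex libraries. Spread in the other groups was not compared. Titles gave groups and replicate numbers. For the third stele, cortex and epidermis libraries the descriptions give number 2 instead, and the title was followed. Separate plants or sorts are not stated for the replicates, so a p-value here reflects spread that may be technical only. No pair of quiescent center libraries and no pair of stele libraries differed by as little as sampling noise. Same-numbered quiescent center and stele libraries had deviations that correlated at 0.01, 0.14 and 0.13, so the numbers were not taken as pairs. In each direction, the gene with the largest change and the gene with the smallest p are printed, out of the called genes without overlap that average 100 or more in the higher tissue. Alternatives were other pseudocounts, filters, scalings, weights, edgeR 4.0.16, DESeq2 1.42.0 and each library left out with the same genes tested. Scripts were tested on simulated data. The comparison, lists and tests were chosen with earlier results of these data known, and the planned lists of named genes were not used since no identifier had a name.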

Additional observations from a re-analysis of the deposited data

How the results depend on the processing

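Of the 20 alternatives to the comparison of quiescent center and stele, 16 kept the total of 6067 genes within 1.5 times. The exceptions were all 24 libraries in 1 fit, which also tested more genes (25555), with 9693 genes (6526 lower), and each stele library left out. With all 24 libraries and the same genes tested, added after seeing the data, 9023 were called (5929 lower). Leaving out 1 library at a time, the total ranged from 3098 to 7759, genes higher from 1098 to 3104 and genes lower from 2000 to 4655. Genes above 0 in all 6 libraries, chosen after seeing the data, gave 2791 higher and 2214 lower; this filter drops 1662 of the genes called lower and 109 of those called higher. These alternatives shared 51.0% to 100% of the calls. The totals ranged from 2882 to 6825 for quiescent center against endodermis, 167 to 3772 for endodermis against stele and 245 to 2442 for cortex against stele, and with all 24 libraries they were 9454, 727 and 1155. With a replicate block by title number the totals were 5398 for quiescent center against stele and 3839 against endodermis. They were 264 for endodermis against stele and 268 for cortex against stele, where same-numbered libraries were not the most alike in their deviations. Deviations of quiescent center replicate 1 from its group correlated at 0.01 with those of stele replicate 1 and at 0.02 with those of stele replicate 2. Deviations of quiescent center replicates 2 and 3 correlated best with those of their own number, at 0.14 and 0.13. The 4 printed genes kept direction and threshold in every alternative that tested them, with adjusted p at most 0.0108, and the median of endodermis minus the mean of epidermis and cortex moved by less than the spread between libraries. Other values from unused groups were not recomputed under the alternatives. The cause of these changes was not tested. The 3 libraries a group, and zeros in the quiescent center, limit what can be detected. Such zeros were most frequent under about 300 units and did not end there.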

Other observations

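The most abundant genes differed between the tissues. Of the 100 genes with the highest mean in the quiescent center, 43 were also among the 100 highest in the stele. Among the 100 highest of the quiescent center, every quiescent center library lay above every stele library for 25 genes and below for 24, near the 20.2% and 28.1% of all tested genes. Among the 100 highest of the stele, every quiescent center library lay below every stele library for 77 genes and above for 1. Lists chosen by their level in one group lean toward that group, so these counts are a description. The 100 highest genes of each library held 13.6%, 11.3% and 15.4% of its signal in the quiescent center, against 17.5%, 18.8% and 18.4% in the stele.

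Identifiers that begin with GRMZM5G, whose nature the files do not state, were mostly at higher values in the quiescent center. Among 174 such identifiers, 98 were tested, of which 13 were called higher and 0 lower by limma, beside 11.2% and 16.0% of all tested genes. Every quiescent center library lay above every stele library for 46 of the 98 and below for 1, beside 20.2% and 28.1% of all tested genes. Some of the 98 had the same group means, fold change and SE as another of them, so the counts hold some signals more than once. Their median log2 fold change was 1.49, beside −0.50 over all tested genes, and it was between 0.95 and 2.48 in the alternatives. The 174 identifiers held 0.123%, 0.257% and 0.314% of the signal in the quiescent center libraries, against 0.0538%, 0.0471% and 0.103% in the stele libraries, so the groups did not overlap. The number called higher was 29 without quiescent center replicate 1, beside 11.7% of all tested genes, and 2, 3 or 5 without stele replicate 1, 2 or 3, beside 4.91% to 6.51%. It was 40 with quantile normalization, 37 with DESeq2 and 10 with edgeR, beside 16.0%, 15.2% and 10.8% of all genes tested in those fits. Without a filter, and without quiescent center replicate 3, 3 were called lower.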
